A study of Mus musculus with 6 samples.

Results

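The genes of the proteasome were followed in megakaryocyte progenitors carrying GATA1s. Members were all genes whose platform symbol begins with Psma, Psmb, Psmc, Psmd or Psme and a digit, measured by a probe set annotated to that gene alone. This gave 44 of the 18193 genes on the array, of which 43 passed the filter on low signal. The progenitors came from bone marrow of adult mice aged 12 to 18 weeks (3 arrays) and from fetal liver at E13.5 (3 arrays). Every animal was of the C57BL/6 strain and the GATA1s genotype, in which the transcription factor GATA1 lacks its amino-terminal part. Progenitors with unaltered GATA1 were not analysed here, and the comparison is between tissues of differing age within 1 genotype. All samples were sorted as lineage-negative, Sca-1-negative cells with c-kit, CD150 and CD41 on their surface. The labels call the samples biological replicates without giving the number of animals in each, so the p-values rest on the variation among these samples, which may be partly technical. Values are MAS5 signals, a linear brightness per probe set, and log2 fold changes are bone marrow minus fetal liver throughout, so a positive value means a higher signal in bone marrow.

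The proteasome is the large protease that degrades ubiquitin-tagged proteins. Its barrel-shaped core is built of alpha rings and beta rings, and only some of the beta subunits cut peptide bonds. A regulatory particle, made of a base with ATPases and a lid, recognises ubiquitin chains, unfolds the substrate and feeds it into the core. In cells exposed to interferon, and constitutively in many blood cells, the catalytic subunits encoded by Psmb5, Psmb6 and Psmb7 are replaced by Psmb8, Psmb9 and Psmb10, which gives the immunoproteasome. This form yields peptides suited to presentation on MHC class I. Psme1 and Psme2 encode an activator ring, likewise induced by interferon, that can cap the core in place of the regulatory particle.

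Array medians lay at 65.9 to 74.6 for bone marrow and at 52.0 to 59.1 for fetal liver. Of 11645 genes tested with limma, 36.1% were called at an adjusted p below 0.05. The arrays of the tissues did not overlap for 50.5% of genes, with bone marrow above for 23.7% and below for 26.7%. Over all genes the log2 fold change had a median of -0.04. Centring each array on its median signal moved that median to -0.38 and the calls to 1348 higher and 5377 lower, against 2134 and 2074 as deposited. The CD41 gene Itga2b, used in the sort, was bright in both tissues and not called (log2 fold change -0.01 ± 0.17 SE, limma adjusted p = 0.963). Kit, the gene of c-kit and also used in the sort, was called higher in bone marrow (0.62 ± 0.16 SE, limma adjusted p = 0.0141).

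Within the immunoproteasome only Psmb9 and Psmb8 were called higher in bone marrow, 2 of the 4 members with a probe set of their own, against 18.3% of all genes tested. No immunoproteasome member was called lower. Psmb9 was 7.77-fold and Psmb8 3.11-fold higher. Psmb10 and Psme1 did not pass the test. The constitutive subunits lay on the other side, with 18 of 31 called lower in bone marrow, against 17.8% of all genes, and 1 called higher. These changes were small beside those of Psmb9 and Psmb8. Their median log2 fold change was -0.31.

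**Figure D1:**
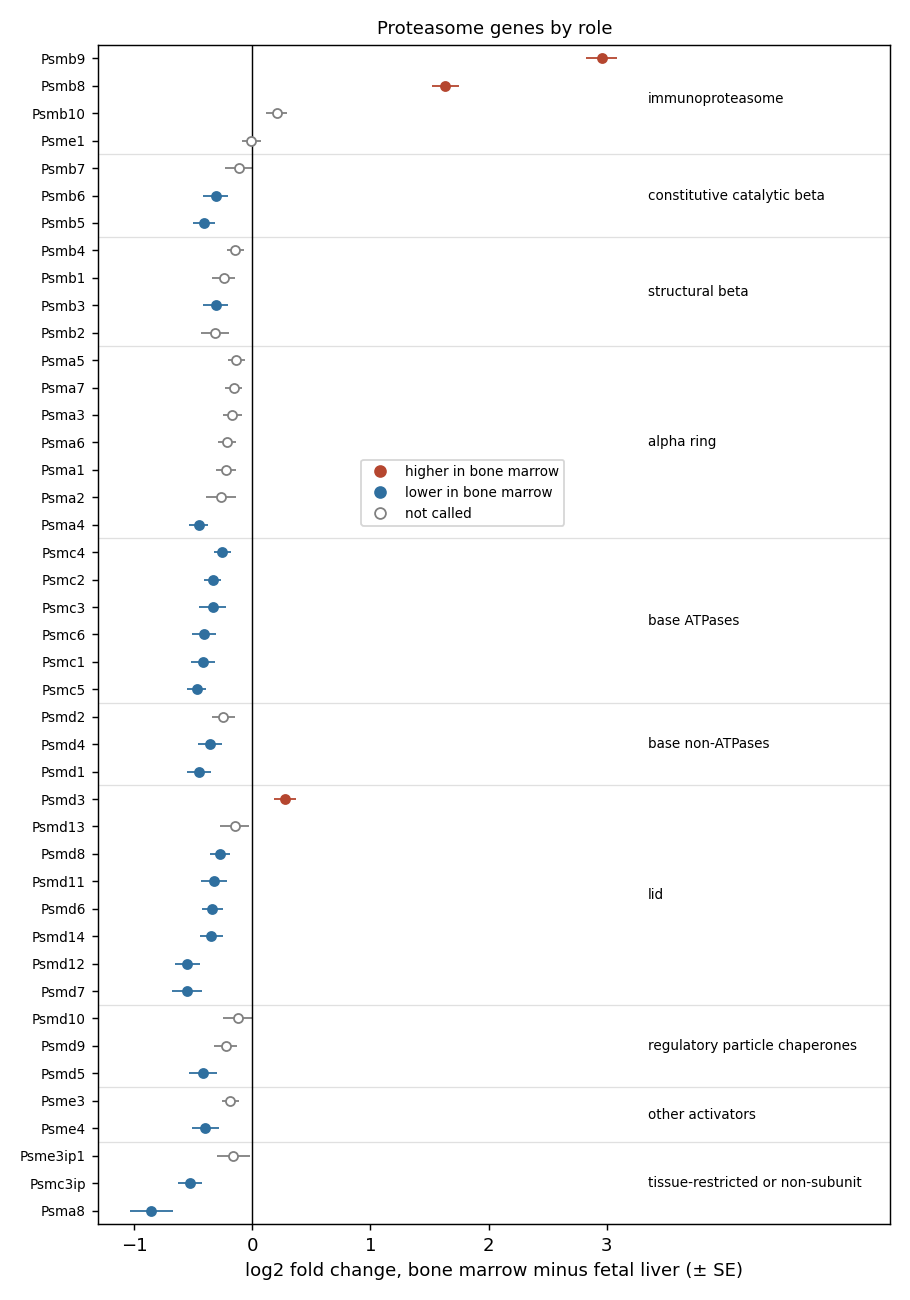
Log2 fold change (x axis, bone marrow minus fetal liver, ± SE from limma) of the 43 proteasome genes tested, grouped by role down the page. Red points were called higher in bone marrow, blue points lower, and open grey points were not called. Psmb9 (2.96) and Psmb8 (1.64) stand far to the right, and nearly all other genes lie left of 0.

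Psmb9, also known as LMP2, encodes the immune subunit that takes the place of Psmb6. Its signal was 3151, 3380 and 3266 on the 3 bone marrow arrays, against 479, 445 and 349 on the 3 fetal liver arrays. The groups lay far apart, and the bone marrow arrays differed little among themselves. The log2 fold change was 2.96 ± 0.13 (SE, limma adjusted p = 1.07e-06). Psmb8, or LMP7, replaces Psmb5. It had signals of 2549, 2689 and 2500 in bone marrow, against 930, 860 and 714 in fetal liver. Again every bone marrow array lay above every fetal liver array, and fetal liver replicate 3 was the lowest for both genes. The log2 fold change was 1.64 ± 0.12 (limma adjusted p = 1.10e-05). Both calls were kept under all 17 alternative settings, with log2 fold changes of 2.62 to 3.12 for Psmb9 and 1.30 to 1.74 for Psmb8. A further probe set of Psmb8 was too dim to pass the filter, at 25.2 ± 18.3 in bone marrow and 19.1 ± 11.4 in fetal liver.

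Psmb10, or MECL-1, replaces Psmb7. It had signals of 3632, 3654 and 3507 in bone marrow, against 2869, 3466 and 3043 in fetal liver. The arrays did not overlap, but fetal liver replicate 2 came close to the bone marrow arrays. The log2 fold change was 0.21 ± 0.09 (limma adjusted p = 0.0976), with a 95% interval of 0.01 to 0.41. Without fetal liver replicate 2 it was 0.28 and passed the test (adjusted p = 0.0195). Quantile normalization also called it (0.28, adjusted p = 0.0186), while centring on the array median turned its sign (-0.13, adjusted p = 0.428). That centring shifted every gene by the same -0.34 log2 units. Relative to the median of all genes Psmb10 lay 0.25 higher as deposited and after centring, and 0.35 higher after quantile normalization.

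Psme1, the alpha subunit of the activator ring, had signals of 5588, 5838 and 5738 in bone marrow, against 5390, 6364 and 5538 in fetal liver. The groups overlapped completely. The log2 fold change was -0.01 ± 0.08 (limma adjusted p = 0.952), and its 95% interval ran from -0.19 to 0.17, which leaves out a change of the size seen for Psmb8. The probe set for Psme2, the beta subunit of that ring, is annotated to both Psme2 and the closely related Psme2b, so Psme2 was not counted as a member. That shared probe set gave 3472, 3809 and 3535 in bone marrow and 3074, 3736 and 3209 in fetal liver, overlapping values with a log2 fold change of 0.11 ± 0.10 (limma adjusted p = 0.418). Which of these genes it measured is uncertain.

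**Figure D2:**
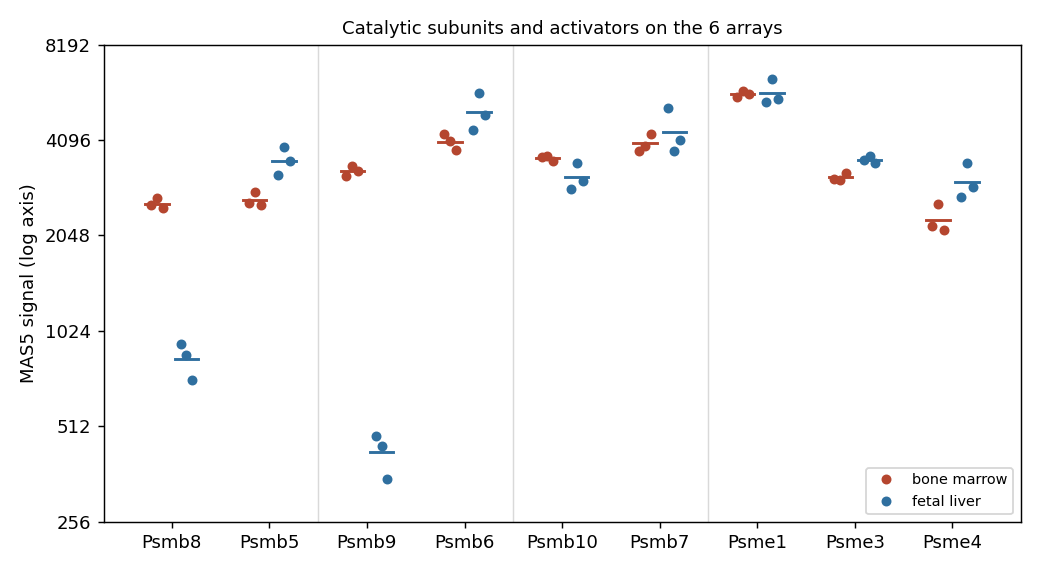
MAS5 signal on each of the 6 arrays (log axis) for the catalytic subunits, each immune subunit beside the constitutive one it replaces, and for the activators Psme1, Psme3 and Psme4. Red points are bone marrow, blue points fetal liver, and bars are means. The tissues separate widely for Psmb8 and Psmb9 and lie close together for the other genes.

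Of the constitutive catalytic subunits 2 of 3 were called lower in bone marrow, against 17.8% of all genes. Psmb5, which carries the chymotrypsin-like activity, had signals of 2584, 2818 and 2548 in bone marrow, against 3185, 3881 and 3511 in fetal liver. Its groups did not overlap, the log2 fold change was -0.41 ± 0.09 (limma adjusted p = 0.00912), and the call was kept under all 17 alternatives. Psmb6, which carries the caspase-like activity, had 4279, 4054 and 3799 in bone marrow, against 4410, 5783 and 4904 in fetal liver. Fetal liver replicate 1 lay near the bone marrow arrays and replicate 2 far above them. Its log2 fold change of -0.31 ± 0.10 passed narrowly (limma adjusted p = 0.0455) and was called in 8 of the 17 alternatives. Leaving out any single array except fetal liver replicate 1 ended the call (adjusted p 0.0602 to 0.158). Psmb7, which carries the trypsin-like activity, had 3792, 3926 and 4266 in bone marrow, against 5174, 3781 and 4103 in fetal liver. These groups overlapped, and its log2 fold change of -0.11 ± 0.12 did not pass (limma adjusted p = 0.484, 95% interval -0.37 to 0.15).

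Each immune subunit was then set against the subunit it replaces within the same array, so that any scaling of the array cancels. The level of such a difference compares different probe sets and has no meaning, but its change between tissues shows how unequally the genes changed. For Psmb9 minus Psmb6 the log2 differences were -0.44, -0.26 and -0.22 on the bone marrow arrays, against -3.20, -3.70 and -3.81 on the fetal liver arrays. The tissues differed by 3.27, or 9.61-fold. For Psmb8 minus Psmb5 they were -0.02, -0.07 and -0.03 in bone marrow, against -1.78, -2.17 and -2.30 in fetal liver, a shift of 2.04, or 4.12-fold. In both pairs the bone marrow arrays clustered tightly and the fetal liver arrays all lay far below. For Psmb10 minus Psmb7 they were -0.06, -0.10 and -0.28 in bone marrow, against -0.85, -0.13 and -0.43 in fetal liver. These overlapped, with a shift of 0.32, which was 0.13 without fetal liver replicate 1 and 0.49 without fetal liver replicate 2. A two-sided exact permutation test gave p = 0.1 for the pairs of Psmb9 and Psmb8 and p = 0.2 for that of Psmb10 (adjusted over the 3 pairs 0.15, 0.15 and 0.2). The smallest p that 3 against 3 arrays allow is 0.1.

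**Figure D3:**
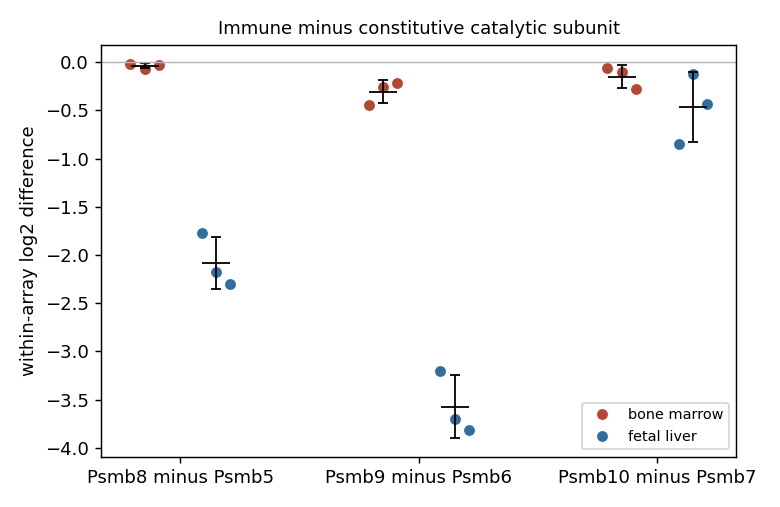
Within-array log2 difference (y axis) between each immune catalytic subunit and the constitutive subunit it replaces. Red points are the 3 bone marrow arrays, blue points the 3 fetal liver arrays, and black bars give mean ± SD. The tissues differ by 2.04 for Psmb8 minus Psmb5 and 3.27 for Psmb9 minus Psmb6, and overlap for Psmb10 minus Psmb7.

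The promoters of the immune and constitutive catalytic subunits with an entry in the table used are shown so that their letters can be compared. They are the 250 bases before the gene start in RefSeq on build GRCm38.p6, with capitals marking any match, on either strand, to 6 motifs. The motifs were the interferon-stimulated response element core (GAAA, any 2 bases, GAAA), the gamma-activated site (GAS) TTCNNNGAA, an NF-kB site (GGG, any 2 bases, TTTCC), the antioxidant response element core TGACNNNGC, the CCAAT box and the GC box GGGCGG. Psmb7 has no entry there.
Psmb9 (chr17:34187331-34187580, minus strand): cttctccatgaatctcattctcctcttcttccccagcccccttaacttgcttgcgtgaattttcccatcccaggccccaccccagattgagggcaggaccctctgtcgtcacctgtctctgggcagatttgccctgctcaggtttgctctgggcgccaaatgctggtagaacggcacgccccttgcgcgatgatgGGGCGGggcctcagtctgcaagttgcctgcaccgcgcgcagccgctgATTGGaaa
Psmb8 (chr17:34197945-34198194, plus strand): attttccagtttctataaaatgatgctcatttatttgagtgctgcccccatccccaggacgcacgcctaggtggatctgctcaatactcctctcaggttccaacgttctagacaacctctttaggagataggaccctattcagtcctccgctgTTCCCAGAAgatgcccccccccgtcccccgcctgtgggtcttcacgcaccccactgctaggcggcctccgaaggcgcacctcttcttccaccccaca
Psmb10 (chr8:105938393-105938642, minus strand): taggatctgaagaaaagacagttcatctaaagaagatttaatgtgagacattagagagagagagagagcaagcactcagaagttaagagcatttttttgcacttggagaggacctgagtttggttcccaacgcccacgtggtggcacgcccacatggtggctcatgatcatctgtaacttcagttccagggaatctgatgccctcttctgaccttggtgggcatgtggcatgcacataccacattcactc
Psmb5 (chr14:54617996-54618245, minus strand): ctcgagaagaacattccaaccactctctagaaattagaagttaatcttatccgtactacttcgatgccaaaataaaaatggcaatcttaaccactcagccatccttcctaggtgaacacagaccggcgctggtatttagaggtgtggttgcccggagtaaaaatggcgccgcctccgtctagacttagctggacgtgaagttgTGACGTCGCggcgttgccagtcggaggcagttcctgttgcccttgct
Psmb6 (chr11:70525107-70525356, plus strand): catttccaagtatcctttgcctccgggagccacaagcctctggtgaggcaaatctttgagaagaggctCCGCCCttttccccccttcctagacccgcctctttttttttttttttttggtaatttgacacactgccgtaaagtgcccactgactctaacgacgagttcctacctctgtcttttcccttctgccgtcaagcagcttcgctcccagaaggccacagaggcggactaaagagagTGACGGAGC
In these windows Psmb8 held a GAS match, TTCCCAGAA, starting 97 bases before the gene start, and Psmb9 held a GC box and, next to its start, a CCAAT box on the other strand. The Psmb9 window lies between Psmb9 and its neighbour Tap1, and the window of Tap1 held the same pair of matches. Psmb10 held none of the 6 motifs. Psmb5 held an antioxidant response element core and Psmb6 held that core and a GC box on the other strand. The GAS letters were found in 1 of 5 immunoproteasome genes, in 0 of the 25 constitutive subunits with an entry and in 7.02% of all 32851 promoters. The counts out of 5 and 25 are per gene, and a gene with several promoter entries counted if any of them matched. The shares of all promoters are per entry, so the measures are not quite alike. The interferon-stimulated response element core was in 0 of 5, in 2 of 25 (Psmb3 and Psmd4) and in 2.98% of all promoters, and the NF-kB letters were in 0 of 5, 0 of 25 and 1.41%. The antioxidant response element core was in 0 of 5, in 4 of 25 and in 10.2% of all promoters. GC boxes were in 3 of 5, 14 of 25 and 32.7% and CCAAT boxes in 1 of 5, 10 of 25 and 33.9%. A match describes letters only, and no match says only that these letters are not in this window.

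Psmb9 and Psmb8 lie side by side with the peptide transporter genes Tap1 and Tap2 on chromosome 17, inside the MHC class II region, and all 4 were higher in bone marrow. Tap1 averaged 1929 ± 239 in bone marrow, against 380.4 ± 43.7 in fetal liver (SD over 3 arrays per tissue). Its log2 fold change was 2.34 ± 0.14 (SE, limma adjusted p = 3.36e-06). Tap2 had 503 ± 97.2 in bone marrow and 199 ± 32.2 in fetal liver (log2 fold change 1.33 ± 0.19, limma adjusted p = 7.41e-04). The next genes outward, H2-DMb2 and H2-Ob, which encode class II accessory chains, were higher too. H2-DMb2 averaged 399.8 ± 142 in bone marrow, against 24.0 ± 3.30 in fetal liver, and H2-Ob averaged 1189.5 ± 62.4 in bone marrow, against 26.5 ± 12.6 in fetal liver. H2-DMb1 was not tested. Next to Psmb10 on chromosome 8 no neighbour was called higher. Pskh1, Ctrl and Slc12a4 were not called, and Lcat, a lipid-modifying enzyme of low signal, was lower in bone marrow (-1.55 ± 0.42, limma adjusted p = 0.0183). On chromosome 14, where Psme1 and Psme2 lie near each other, Dcaf11, Emc9 and Rnf31 were not called. Irf9, part of the interferon-activated factor ISGF3, lies just beyond them and was higher (0.75 ± 0.15, limma adjusted p = 0.00404). Neighbours follow the gene order of RefSeq assembly GRCm38.p6.

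**Figure D4:**
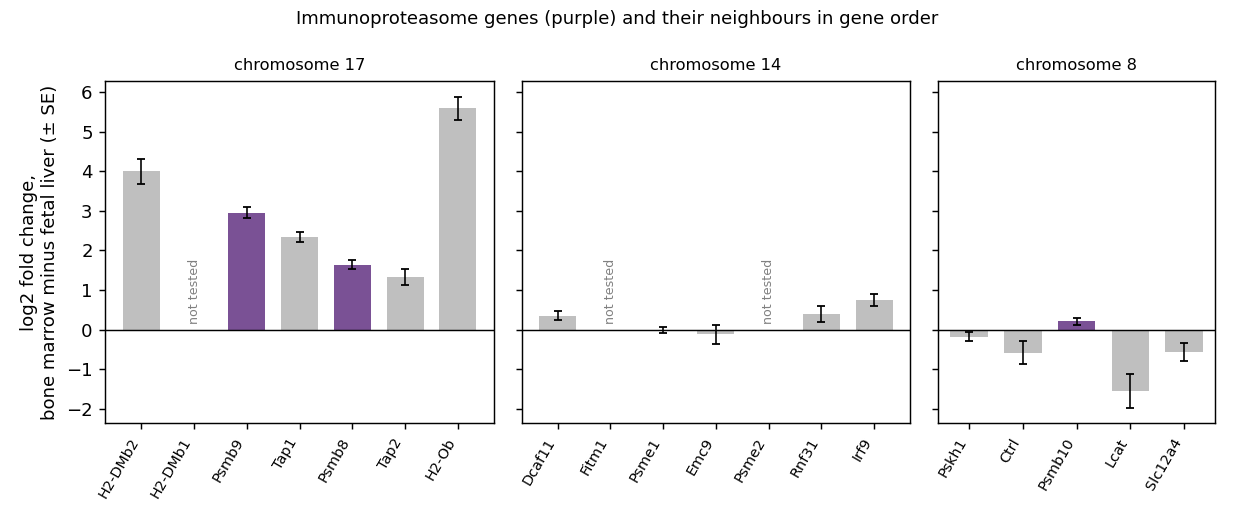
Log2 fold change (bars, bone marrow minus fetal liver, ± SE from limma) of the immunoproteasome genes, in purple, and of up to 2 genes on each side, in grey, in chromosome order and not to genomic scale. The tested genes from H2-DMb2 to H2-Ob on chromosome 17 were all higher in bone marrow, whereas those around Psme1 and Psmb10 range from -1.55 (Lcat) to 0.75 (Irf9).

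Among other genes of class I presentation 8 of 12 were called higher in bone marrow, against 18.3% of all genes, and none lower, with a median of 0.98. Under median centring 6 were higher and 3 lower. The called genes included Tap1, the heavy chain gene H2-K1 (1.80 ± 0.09) and Nlrc5, the transactivator of class I genes. Nlrc5 averaged 2408 in bone marrow, against 22.3 in fetal liver, which is under the filter signal of 22.9, so it was testable through bone marrow alone and no fold is given. It is 1 of the 8 called, and its call adds no support to that count. B2m, the class I light chain, and the chaperones Calr, Canx and Pdia3 were not called. Of 11 tested interferon receptor and signalling genes, 6 were higher, against 18.3% of all genes, and none lower, with a median of 0.51. The number higher was 3 under median centring and 10 with array weights. Irf8, a transcription factor of myeloid cells, stood at 3.77 ± 0.19 on the log2 scale. Irf1, which is known to drive Psmb9 and Tap1, stood at 2.15 ± 0.12, and the receptor chain Ifnar2 at 0.77 ± 0.12.

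Markers of other cell types were also compared between the tissues. The counts below stand beside 18.3% of all genes tested called higher in bone marrow and 17.8% called lower. Of the granulocyte and monocyte markers 16 of 16 tested were higher in bone marrow, with a summed signal of 63209 to 79882 in bone marrow and 7363 to 9317 in fetal liver. Lymphoid markers were higher in 8 of 10 cases, with sums of 4536 to 7482 in bone marrow and 1460 to 1604 in fetal liver. Cd79b, which was not called, averaged 1482 in bone marrow and 1268 in fetal liver, where it made up most of the lymphoid sum. Mast cell and basophil markers were higher in 6 of 6, with sums of 5755 to 7065 in bone marrow and 1190 to 1888 in fetal liver. That count and those sums include Kit, which was used in the sort and so does not set mast cells apart here. Kit alone averaged 1845 on the bone marrow arrays, against 1225 on the fetal liver arrays, where it made up most of the sum. Macrophage markers were higher in 5 of 5, with sums of 1426 to 1749 in bone marrow and 267 to 295 in fetal liver. Dendritic cell markers were higher in 4 of 4, at 1313 to 1730 in bone marrow and 667 to 809 in fetal liver. Bst2 alone averaged 1001 in bone marrow and 703 in fetal liver, most of the dendritic sum in both tissues. In fetal liver 1 granulocyte, 1 macrophage, 3 lymphoid and 2 mast cell markers averaged below 10.6, the level of unspiked bacterial control probe sets, and in bone marrow no marker did. Of the called genes 4 granulocyte, 7 lymphoid, 3 mast cell, 2 macrophage, 3 dendritic and 1 erythroid markers had a fetal liver mean under the filter signal of 22.9. These passed the filter through bone marrow alone and had to differ, so the counts are no measure of how many markers changed. Bone marrow replicate 1 had the lowest granulocyte, lymphoid, mast cell and dendritic sums of its tissue and the highest macrophage sum. Its Psmb9 signal was the lowest of the 3 bone marrow arrays and its Psmb8 signal lay between the others. The part of these cells in the proteasome results was not tested, and in bulk samples fewer cells of a type and less RNA per cell cannot be told apart. Erythroid markers were higher in 4 of 7 cases and lower in 1, with sums of 8083 to 15143 in bone marrow and 6214 to 7098 in fetal liver. Megakaryocyte markers were higher in none and lower in 2 of 8 (22217 to 26843 in bone marrow and 19067 to 34113 in fetal liver). Endothelial markers were lower in 3 of 4 (1874 to 2135 in bone marrow and 3306 to 4252 in fetal liver).

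The 31 constitutive subunits of core, base and lid shared a small shift. All but Psmd3 had a negative log2 fold change. Of the 31, 18 were called lower in bone marrow and 1 higher, against 17.8% and 18.3% of all genes. The arrays did not overlap, with bone marrow below, for 25, against 26.7% of all genes. Fetal liver replicate 2 had the highest signal of all 6 arrays for 26 of the 31 subunits. Without that array the median was -0.20, against -0.31 with it, and 13 subunits were called lower. Leaving out bone marrow replicate 1 or 2 left 10 called lower, bone marrow replicate 3 left 9, and fetal liver replicate 3 left 10. Under quantile normalization the median was -0.21 with 12 called, and centring on the array median gave -0.65 with 30 called. Relative to all genes the subunits lay 0.27 lower as deposited, and 0.14 lower after quantile normalization. Centring shifts every gene alike and so cannot alter the relative value.

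**Figure D5:**
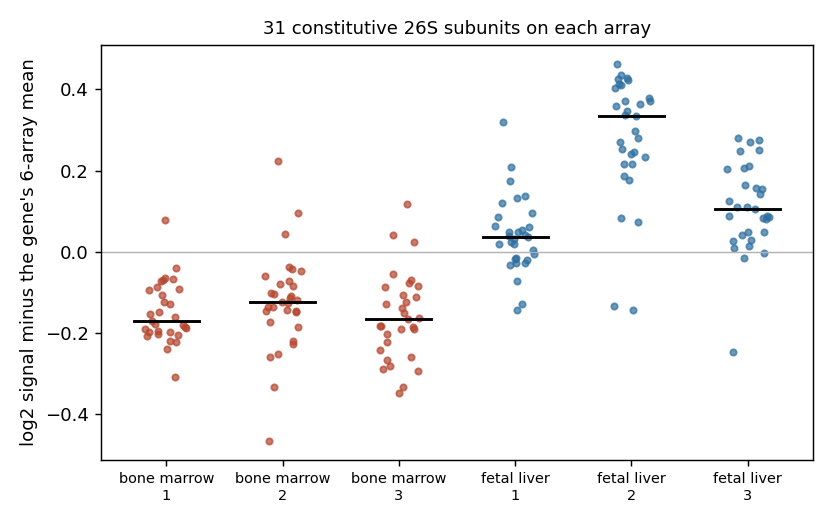
Log2 signal of each of the 31 constitutive subunits minus that gene's mean over the 6 arrays (y axis), by array. Red points are bone marrow, blue points fetal liver, and black bars are medians. The bone marrow arrays sit below 0, and fetal liver replicate 2 stands above both other fetal liver arrays.

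In the alpha rings, which gate entry to the core, 1 of 7 subunits was called lower in bone marrow and none higher, a share near the 17.8% of all genes called lower. The median was -0.21. The one was Psma4, with signals of 3181, 3046 and 3129 in bone marrow, against 3997, 4609 and 4222 in fetal liver. All fetal liver arrays lay clearly above, and its log2 fold change was -0.45 ± 0.08 (limma adjusted p = 0.00218). Psma5 had 4869, 4763 and 5284 in bone marrow, against 5653, 5505 and 5186 in fetal liver. These overlapped, with a log2 fold change of -0.13 ± 0.07 (limma adjusted p = 0.192), although a second bright probe set of Psma5 gave -0.37 (adjusted p = 0.00489 when probe sets were tested singly). The other alpha subunits ranged from -0.26 to -0.16. With the mean of probe sets the values of Psma1, Psma3 and Psma6 were 0.43, 0.036 and 0.080, none of them called.

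Of the 4 structural beta subunits, which have no catalytic activity, 1 was called lower, against 17.8% of all genes. It was Psmb3 at -0.31 ± 0.11 (limma adjusted p = 0.0470, called in 9 of 17 alternatives). Leaving out any 1 array other than fetal liver replicate 1 ended that call (adjusted p 0.0595 to 0.123). Psmb2 had signals of 3057, 2929 and 2498 in bone marrow, against 2992, 3865 and 3738 in fetal liver. Fetal liver replicate 1 fell among the bone marrow arrays, and the log2 fold change of -0.32 ± 0.12 did not pass (limma adjusted p = 0.0657). Psmb4 had 5047, 5298 and 5175 in bone marrow, against 5522, 6136 and 5490 in fetal liver. Its arrays did not overlap, but the change was small (-0.14 ± 0.07, limma adjusted p = 0.155). Psmb1 lay at -0.24 and was not called.

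The 6 ATPases of the base, which unfold substrates and open the core, were all called lower in bone marrow, against 17.8% of all genes. None of their arrays overlapped, with bone marrow below for all 6, against 26.7% of all genes. The median was -0.37. Psmc5 had signals of 2008, 1882 and 1835 in bone marrow, against 2591, 2604 and 2724 in fetal liver. Both groups were tight, with a log2 fold change of -0.47 ± 0.08 (limma adjusted p = 0.00218). Psmc4 had the smallest change, with 4165, 4023 and 3825 in bone marrow, against 4664, 4596 and 5040 in fetal liver. Its log2 fold change was -0.25 ± 0.07 (limma adjusted p = 0.0274). Psmc1, Psmc6, Psmc3 and Psmc2 lay at -0.41, -0.40, -0.33 and -0.33. The mean over probe sets of Psmc2, some of them dim, was 0.031 and was not called. A dimmer probe set of Psmc6 gave -0.10 (adjusted p = 0.593 when probe sets were tested singly). Its signal was 910 ± 89.3 in bone marrow and 977 ± 90.4 in fetal liver. The call of Psmc3 ended when any 1 array other than fetal liver replicate 1 was left out, that of Psmc4 without bone marrow replicate 2 or 3 or fetal liver replicate 3, and that of Psmc6 without bone marrow replicate 3. Without the variance trend, or without bone marrow replicate 3, 3 of the 6 were called, and with the mean of probe sets 4 were.

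Some of the other base subunits bind ubiquitin chains or shuttle factors. Psmd1 had signals of 2629, 2728 and 2355 in bone marrow, against 3098, 3895 and 3562 in fetal liver. Every fetal liver array lay above the bone marrow arrays, and the log2 fold change was -0.45 ± 0.10 (limma adjusted p = 0.00937). Psmd4, the ubiquitin receptor, was also called (-0.35 ± 0.10, limma adjusted p = 0.0219), but not when any 1 bone marrow array or fetal liver replicate 3 was left out (adjusted p 0.0519 to 0.0713). Psmd2 had 3142, 3769 and 3206 in bone marrow, against 3779, 4407 and 3780 in fetal liver. Bone marrow replicate 2 almost reached the fetal liver arrays, and -0.24 ± 0.10 did not pass (limma adjusted p = 0.0868).

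In the lid 6 of 8 subunits were called lower in bone marrow and 1 higher, against 17.8% and 18.3% of all genes, with a median of -0.33. Psmd7, the partner of the deubiquitinase Psmd14, had signals of 1439, 1290 and 1715 in bone marrow, against 1958, 2388 and 2147 in fetal liver. The groups were separate, and the log2 fold change was -0.55 ± 0.13 (limma adjusted p = 0.00857). Psmd12 was close to it at -0.55 ± 0.10, and Psmd14 itself lay at -0.35 ± 0.10. The call of Psmd14 ended when any 1 bone marrow array or fetal liver replicate 3 was left out (adjusted p 0.0503 to 0.0757). Psmd6, Psmd11 and Psmd8 were called at -0.34, -0.32 and -0.27, and the calls of Psmd11 and Psmd8 ended when any 1 array other than fetal liver replicate 1 was left out. That of Psmd6 ended without bone marrow replicate 1 or 2. Psmd13 had 2110, 2496 and 2084 in bone marrow, against 2115, 2788 and 2523 in fetal liver, which overlapped (-0.15 ± 0.12, limma adjusted p = 0.380). Psmd3 was the exception, with 1915, 2118 and 1968 in bone marrow, against 1780, 1643 and 1530 in fetal liver. Its bone marrow arrays all lay above, at 0.28 ± 0.10 (limma adjusted p = 0.0475). That call was kept in 8 of 17 alternatives, ended when any 1 array other than fetal liver replicate 1 was left out (adjusted p 0.0690 to 0.163), and its sign turned with centring on the array median (-0.059, adjusted p = 0.706). Relative to the median of all genes Psmd3 lay 0.32 higher as deposited, a value that centring cannot alter because it shifts every gene alike.

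Outside core, base and lid 1 of 3 chaperones of the regulatory particle was called lower in bone marrow, against 17.8% of all genes. Psmd5 had signals of 1731, 2141 and 1885 in bone marrow, against 2482, 2911 and 2295 in fetal liver, with separate groups (-0.42 ± 0.12, limma adjusted p = 0.0224). The call ended without bone marrow replicate 1 or 3 or fetal liver replicate 2 (adjusted p 0.0612 to 0.0746). Psmd10, also called gankyrin, had 832, 690 and 799 in bone marrow, against 875, 781 and 867 in fetal liver, which overlapped (-0.12 ± 0.12, limma adjusted p = 0.454). Psmd9 lay at -0.22 and was not called.

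Of the other activators 1 of 2 was called lower in bone marrow, against 17.8% of all genes. Psme4, which encodes PA200, had signals of 2186, 2581 and 2127 in bone marrow, against 2708, 3467 and 2906 in fetal liver. Its arrays were separate (-0.39 ± 0.12, limma adjusted p = 0.0271), but the mean over its probe sets, some of them dim, was 0.095 (adjusted p = 0.673). Its call ended without bone marrow replicate 1 or 3 or fetal liver replicate 2 or 3 (adjusted p 0.0564 to 0.105). Psme3, the nuclear activator subunit, had 3092, 3065 and 3228 in bone marrow, against 3548, 3636 and 3478 in fetal liver. These were separate too, but -0.18 ± 0.07 did not pass (limma adjusted p = 0.0748, 95% interval -0.35 to -0.02). A second bright probe set of Psme3, at 1407 ± 90.1 in bone marrow and 1959 ± 66.4 in fetal liver, gave -0.48 (adjusted p = 0.00554 when probe sets were tested singly).

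The rule also took genes that are restricted to other tissues or are not subunits. Psma8, an alpha subunit known from testis, had signals of 402, 368 and 267 in bone marrow, against 551, 599 and 704 in fetal liver. Its arrays did not overlap, and its log2 fold change of -0.85 ± 0.18 (limma adjusted p = 0.00601) was called under all 17 alternatives. Psmb11, the thymus-restricted catalytic subunit, had 6.93, 7.51 and 1.58 in bone marrow and 1.39, 0.91 and 0.62 in fetal liver. All 6 values were below the control level of 10.6, so it did not pass the filter and no fold is given. Psmc3ip, a meiotic recombination factor named for binding Psmc3, was called lower (-0.52 ± 0.10, limma adjusted p = 0.00338). Psme3ip1, which binds Psme3, had 1564, 2002 and 1639 in bone marrow, against 1763, 2318 and 1752 in fetal liver, which overlapped (-0.16 ± 0.14, limma adjusted p = 0.405).

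Of 23 genes tested that build, assist, regulate or supply the proteasome 7 were called in either direction (30.4%), a share near the 36.1% of all genes. Of 6 genes tested from the list of assembly factors 1 was called lower in bone marrow, Psmg3 (-0.60 ± 0.11, limma adjusted p = 0.00220), and none higher. The call of Psmg3 was lost with the mean of its probe sets (-0.096). Pomp, which guides maturation of the core and is known to favour immunoproteasome assembly, was not called, with a signal of 4815 ± 174 in bone marrow, against 5627 ± 732 in fetal liver (limma adjusted p = 0.109). Of 8 accessory genes 2 were higher and 1 lower. Zfand2a and Zfand5, zinc-finger proteins that bind the proteasome, were the higher ones (0.81 ± 0.15 and 0.46 ± 0.08). The deubiquitinase Uchl5 was lower (-0.25 ± 0.07, limma adjusted p = 0.0243), but lost its call when any 1 bone marrow array or fetal liver replicate 3 was left out. Its call was also lost with the mean of its probe sets, and over the 17 alternatives its log2 fold change ranged up to -0.014. Nfe2l1, the transcription factor that drives constitutive subunit genes when the proteasome is impaired, was not called (0.08 ± 0.10), and its relative Nfe2l2 was higher (0.41 ± 0.13, limma adjusted p = 0.0325, called in 10 of 17 alternatives, and not without bone marrow replicate 2 or 3 or fetal liver replicate 1 or 2). Of 6 ubiquitin shuttle and segregase genes Vcp (-0.40 ± 0.11) and Nploc4 (-0.24 ± 0.08) were lower, and the others were not called. Vcp lost its call without bone marrow replicate 1 or 3, and Nploc4 when any 1 array other than fetal liver replicate 1 was left out.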

How the data were processed

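The deposited table holds linear intensity signals that the authors made with MAS5, per the submitters' processing notes, which name no version. Trimmed by 2% at either end, each array's values average 500. MAS5 signals carry no offset and scatter widely when low, and the number of arrays limits the precision. Gene symbols came from the platform annotation: 34945 non-control probe sets had 1 symbol, 932 several and 9160 none. Signals were log2-transformed, probe sets below the 40th percentile of mean log2 signal (22.9) were dropped, and each gene kept the probe set with the highest mean. limma (version 3.58.1, R 4.3.3) fitted tissue over 11645 genes, with 4 residual degrees of freedom and a variance prior that follows intensity, with Benjamini-Hochberg adjustment and a threshold of 0.05. Simulated data with known changes were used to test the fit. Of 91 single-gene probe sets of members, 43 were used. Of the 41 other probe sets past the filter, 27 had the same sign as the one used and 14, with mean signals of at most 374, the opposite sign, none of them called. No arrays held identical values. The control level is the 95th percentile of 27 unspiked bacterial probe sets. Alternatives were other filters, scalings, an offset, a floor, the mean of probe sets, other priors, array weights, a replicate block and leaving out each array. Members and lists were chosen with earlier results of these data known. Every member could be named, with array values for catalytic subunits, activators and, per role, the members changed most and least; of other lists, the 3 called members with the largest changes and the genes next to immunoproteasome members were named. Pomp, Nfe2l1, Akirin2, Calr, Canx, Pdia3, B2m, Itga2b, Kit, Bst2, Cd79b and the array values of Psmd3 were added after their values were seen. Promoter sequences are from RefSeq, build GRCm38.p6. Python 3.11.15 with pandas 2.3.3 and numpy 2.4.6 made the tables, and matplotlib 3.10.9 the figures.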

Additional observations from a re-analysis of the deposited data

How the results depend on the processing

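Psmb9 and Psmb8 kept their direction and call under all 17 alternatives, so 2 immunoproteasome members were called higher in bone marrow except under quantile normalization and array weights, which added Psmb10, and without fetal liver replicate 2, which did so too (3 members each). The count of constitutive subunits called lower, 18 in the main setting, was 30 under median centring and 8 without the variance trend, and 9 to 21 when an array was left out. Counting every member outside the immunoproteasome in place of the 31 gave 22 lower. The count called higher, 1 (Psmd3), was 0 with no filter, under median centring, without the variance trend and with the replicate block, and 0 to 1 when an array was left out. Of the 18, 6 were called lower under every alternative: Psma4, Psmb5, Psmc1, Psmc5, Psmd1 and Psmd12. Of the 30 constitutive subunits with a negative value, 24 stayed negative under every alternative. Over all genes 4208 were called, and 6725 under median centring; those higher in bone marrow numbered 1402 with the stricter filter and 1348 under median centring, and those lower 5377 under median centring and 3169 with array weights. Leaving out an array gave 2865 to 4436 in all, 1597 to 2243 higher and 1268 to 2193 lower. Arrays of the same number in both tissues had deviations correlating at -0.08, 0.07 and -0.11, so the numbers were not taken as pairs. With the replicate block 3847 genes were called, 18 constitutive subunits among them as lower. Signs turned for Psmd3 under median centring (-0.059), for Psmc2 (0.031) and Psme4 (0.095) with the mean of probe sets, on single dimmer probe sets of Psmc2 (0.86), Psmd4 (0.22) and Psme4 (0.59, 0.47 and 0.82), none of them called; the cause was not tested. Akirin2, near 0 and listed here with the assembly factors, was called lower under median centring (-0.33). That centring shifts every gene by -0.34, as it did Psmd3. Of uncalled members, Psma1 (0.43), Psma3 (0.036), Psma6 (0.080), Psmd13 (0.16) and Psmd9 (0.046) changed sign with the mean of probe sets, Psmb7 (0.019) without fetal liver replicate 1, and Psmb10 under median centring (-0.13); Psme1, close to 0, kept its sign in 13 of 17 alternatives. The shift between pairs ran from 3.14 to 3.45 for Psmb9 minus Psmb6, from 1.94 to 2.20 for Psmb8 minus Psmb5 and from 0.13 to 0.49 for Psmb10 minus Psmb7 when an array was left out.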
